A study of Mus musculus with 8 samples.

Results

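The 9 genes described here encode the cyclins that drive the cell cycle, the D-type cyclins Ccnd1, Ccnd2 and Ccnd3, the E-type cyclins Ccne1 and Ccne2, the A-type cyclin Ccna2, the B-type cyclins Ccnb1 and Ccnb2, and Ccnf. They were taken by symbol from the 27998 genes of the series, by a rule that reads no measured value but was set with earlier results of these data known. Their RNA was counted in 8 libraries of single microglia, sorted by FACS for YFP from the lumbar cord of young adult C57BL/6 mice of both sexes. Control animals were Cx3cr1-yfp-creER/+, which carry YFP and a tamoxifen-inducible Cre driven by Cx3cr1, and A20 cKO animals carried in addition Tnfaip3 fl/fl, the floxed gene of the ubiquitin-editing protein A20. Each genotype gave 4 libraries, made from naive animals or at 1, 2 or 3 days from transection of the sciatic nerve. Tamoxifen was given to all of them, Cre under Cx3cr1 also acts in other Cx3cr1-expressing cells such as monocytes, and each library was a pool of several cords. Every group was therefore 1 library without a replicate, so that no test between groups was possible, and the ranges after values are 95% intervals that cover counting error only.

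Cyclins are the regulatory subunits of the cyclin-dependent kinases, and their levels rise and fall through the cycle. D-type cyclins act with Cdk4 and Cdk6 on the retinoblastoma protein in G1, E-type cyclins act with Cdk2 at the entry into S phase, cyclin A2 acts with Cdk2 and Cdk1 through S phase and G2, and B-type cyclins act with Cdk1 in mitosis. Cyclin F binds no kinase and is the substrate-recognising subunit of an SCF ubiquitin ligase that is most abundant in G2. Microglia of the adult cord divide rarely, and they multiply in the lumbar cord after injury of a peripheral nerve.

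Much of the rise of mitotic cyclins in dividing cells is set at their promoters, where CCAAT boxes are bound by NF-Y and the cell cycle genes homology region (CHR) is bound by the DREAM and MMB complexes. RefSeq start sites on GRCm38.p6 gave promoter windows for 5 of the 9 members, 6 windows in all, each of 230 bases from 200 before to 30 after the start site. The windows of both B-type cyclins, of Ccnf and of Ccne1 are printed because these genes rose together 2 days after injury. Capitals mark CCAAT and the CHR letters TTTGAA, both searched on both strands, and no CCAAT match overlapped a TTTGAA match.
Ccnb2, chr9:70421525-70421754, minus strand: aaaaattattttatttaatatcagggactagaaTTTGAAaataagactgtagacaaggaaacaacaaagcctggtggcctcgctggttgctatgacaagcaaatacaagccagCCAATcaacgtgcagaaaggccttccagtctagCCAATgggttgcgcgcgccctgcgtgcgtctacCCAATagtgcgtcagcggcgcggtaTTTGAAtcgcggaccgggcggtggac
Ccnb1, chr13:100786457-100786686, minus strand: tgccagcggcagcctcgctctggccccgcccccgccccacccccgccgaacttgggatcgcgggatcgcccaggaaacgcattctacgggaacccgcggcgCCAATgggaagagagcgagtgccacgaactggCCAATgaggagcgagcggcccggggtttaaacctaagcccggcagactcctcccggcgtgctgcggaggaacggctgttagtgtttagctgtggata
Ccnf, chr17:24251380-24251609, minus strand: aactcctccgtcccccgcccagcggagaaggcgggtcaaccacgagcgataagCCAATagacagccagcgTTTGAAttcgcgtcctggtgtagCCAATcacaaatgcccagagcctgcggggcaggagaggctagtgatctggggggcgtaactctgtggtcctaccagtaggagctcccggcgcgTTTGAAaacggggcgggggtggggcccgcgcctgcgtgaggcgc
Ccne1, chr7:38107461-38107690, minus strand: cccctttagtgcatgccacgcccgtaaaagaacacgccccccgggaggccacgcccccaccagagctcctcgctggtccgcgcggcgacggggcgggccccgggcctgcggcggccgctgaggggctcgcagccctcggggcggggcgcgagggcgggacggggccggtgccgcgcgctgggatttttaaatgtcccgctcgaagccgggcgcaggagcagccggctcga

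Ccnb2 held 3 CCAAT letters, at −87, −54 and −21 from the start site, and 2 CHR letters, at −167 and 5. Ccnb1 held CCAAT at −99 and −67 and no TTTGAA. Ccnf held CCAAT at −147 and −107 and TTTGAA at −130 and −14. The Ccne1 window held neither, and of the 2 windows of Ccnd3 the second held CCAAT once, at −108. Among 32851 mouse promoter windows of the same length 31.7% held CCAAT, 13.8% held TTTGAA and 4.47% held both, and the E2F letters TTTCGCGC or TTTGGCGC, held by 0.648%, were in none of the 6 windows of members. These are matches of letters in one window, and they say nothing of binding.

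The kept cells, those with at least 1000 UMIs, at least 500 genes and at most 10% mitochondrial UMIs, numbered 14626 of 14883 barcodes. They ranged from 558 to 3585 per library and from 1620481 UMIs in control naive to 15817426 in control day 2, and control naive is the shallowest library against which the control time course is read. In every library at least 95.9% of kept cells had UMIs of 3 or more of 5 microglia markers (P2ry12, Tmem119, Csf1r, Cx3cr1, Fcrls). The floxed gene Tnfaip3 lay at 6.83 to 25.3 CPM (the share of UMIs scaled to a total of 1000000) in the libraries labelled control and at 42.3 to 67.7 CPM in those labelled A20 cKO. A 3′ count reads the end of the transcript and does not by itself show a deletion elsewhere in the gene, so control and A20 cKO below mean the libraries so labelled. The 4 A20 cKO libraries and control day 3, the linked libraries below, shared 256 cell barcodes over their 10 pairs, at 5.41 to 67.6 per 1000000 pairs of barcodes, against 27 over the 3 pairs among the other 3 control libraries, at 1.48 to 2.29. The 15 pairs of a linked library with one of the others shared 98, at 0.797 to 8.83. The ranges of linked and mixed pairs thus overlap. The linked libraries also held the choroid plexus gene Ttr at 126 to 397 CPM, against 0 in the others, while the other 3 choroid plexus markers (Folr1, Kl, Clic6) were at 0 to 0.787 CPM in all 8. Summed neutrophil markers (S100a8, S100a9, Retnlg) stood at 20.1 to 35.0 CPM against 0. Of the 4 monocyte markers Plac8 made up most of the sum, at 22.1 to 83.4 CPM against 0.925 to 1.85, while Ccr2 was at 0.330 to 2.36 CPM against 0.632 to 1.85, Ly6c2 at 0 to 0.660 against 0 to 0.316 and Chil3 at 0.549 to 1.46 against 0. Comparisons of control day 3 or of an A20 cKO library with control naive, day 1 or day 2 cross this split, and what the split adds to them cannot be told apart from day and genotype. Leaving out every cell whose barcode occurred in another library kept each count of cyclins called higher or lower below within 1.5 times its value.

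Levels are UMI sums as CPM. The 3′ chemistry counts 1 end per captured molecule whatever its length, so levels of different cyclins are set side by side without division by length. Where 4 values follow each other they are those of naive and of days 1, 2 and 3 in this order. Together the 9 cyclins took 212, 258, 431 and 488 CPM in the control series and 420, 465, 528 and 479 CPM in the A20 cKO series. D-type cyclins made up most of this in the resting cord. They held 97.4% (95.1 to 98.8), 95.7%, 49.8% (48.6 to 51.0) and 77.5% of the cyclin UMIs in the control series and 89.4%, 89.6%, 69.2% and 75.8% in the A20 cKO series. Day 2 thus had the lowest D-type share in both genotypes, and the control library went further down.

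**Figure D1:**
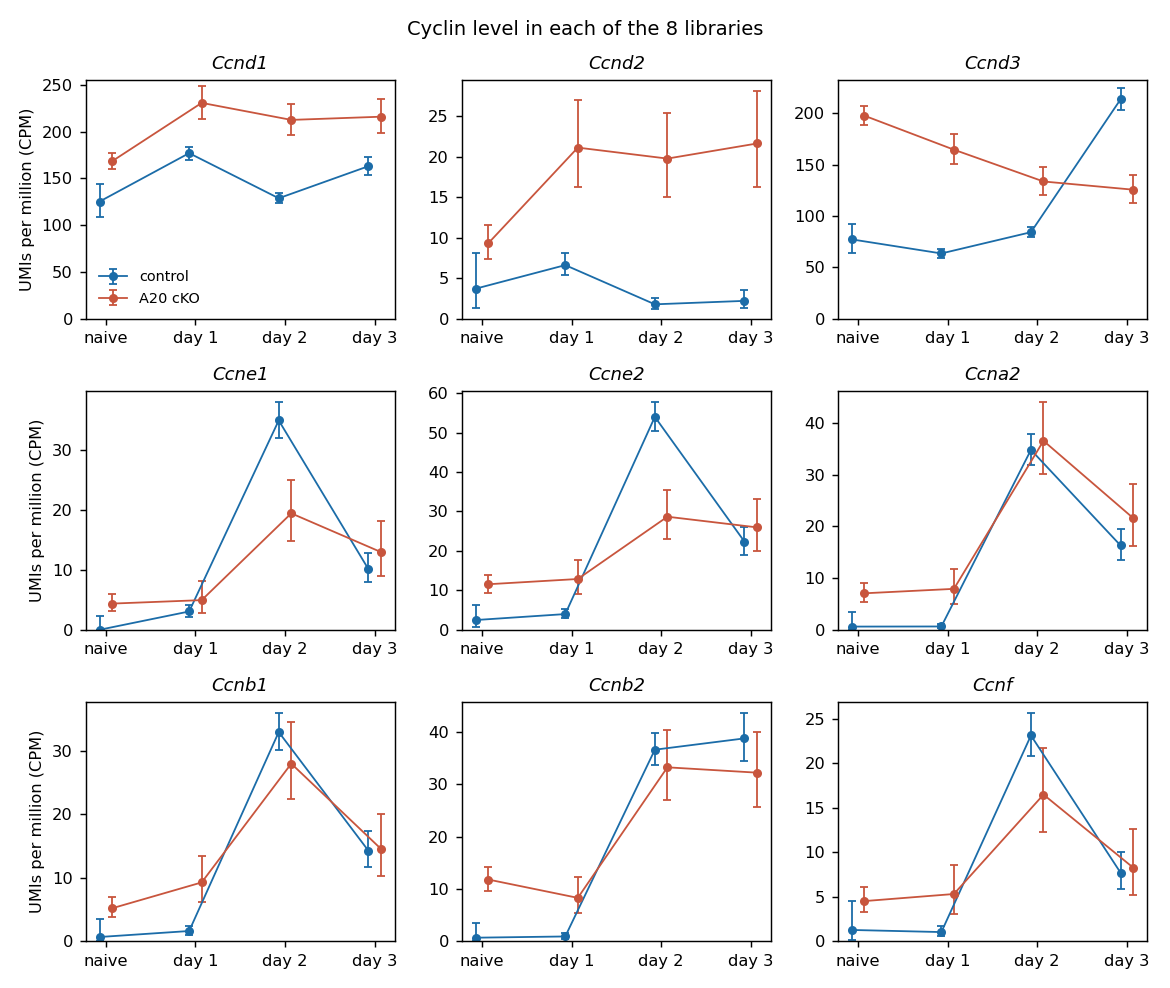
Level of each cyclin (CPM, vertical axis from 0) in naive animals and 1, 2 and 3 days after nerve injury, in control (blue) and A20 cKO (red) libraries. Points are single libraries and bars are 95% Poisson intervals for counting error, and the E-, A- and B-type cyclins and Ccnf are low in naive and day 1 libraries and high on day 2 while Ccnd1 stays between 125 and 231 CPM throughout.

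Ccnd1 (chromosome 7, 144929931 to 144939925, minus strand, GRCm38), the most abundant cyclin in 6 of the 8 libraries, was already high without injury and changed little. It stood at 125 (109 to 144), 177 (170 to 184), 129 (123 to 134) and 163 CPM (154 to 173) in the control series. In the A20 cKO series the levels were 168 (160 to 177), 231 (214 to 249), 213 (197 to 230) and 216 CPM (198 to 235). The levels after injury were above naive in both genotypes on every day, by log2 0.04 to 0.50 in control and 0.34 to 0.46 in A20 cKO, all under the 2-fold used here to call a change, and the control day 2 interval (−0.17 to 0.26) includes 0. In the order of the 8 libraries the 3 injured A20 cKO libraries came first, with overlapping intervals among themselves, and control naive came last, next to control day 2. After thinning each cell to 2000 UMIs, Ccnd1 was found in 21.3% (17.8 to 25.2) of control naive cells and 22.8% (21.4 to 24.2) of control day 2 cells, and without thinning in 27.5% and 40.7%.

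Ccnd3 (chromosome 17, 47505051 to 47599691, plus strand) was the second D-type cyclin of resting microglia. The control series held 77.1 (64.2 to 91.9), 63.4 (59.4 to 67.8), 84.1 (79.7 to 88.8) and 213 CPM (203 to 224). The A20 cKO series went the other way, at 198 (188 to 207), 164 (150 to 180), 133 (121 to 147) and 126 CPM (112 to 140). All 5 linked libraries, at 126 to 213 CPM, lay above all 3 others, at 63.4 to 84.1 CPM, without overlap. Control day 3 against control naive (log2 1.46, 1.20 to 1.74) and A20 cKO naive against control naive (1.35, 1.09 to 1.63) both cross the split. Within the linked libraries Ccnd3 fell by 0.65 on the log2 scale (−0.83 to −0.48) from A20 cKO naive to day 3, and the control libraries of naive, day 1 and day 2 differed among themselves by less than 1.4-fold. In control day 3 and in A20 cKO naive Ccnd3 exceeded Ccnd1, at 1.31 (1.21 to 1.41) and 1.17 (1.09 to 1.26) UMIs of Ccnd3 per UMI of Ccnd1, and in the other 6 libraries the ratio was 0.358 to 0.712.

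Ccnd2 (chromosome 6, 127125162 to 127152193, minus strand) was the scarce D-type cyclin, at 0.580% to 5.96% of D-type UMIs, with higher levels in the A20 cKO libraries. Its level was 3.70 (1.36 to 8.06), 6.62 (5.34 to 8.10), 1.77 (1.18 to 2.56) and 2.20 CPM (1.26 to 3.57) in the control series. In A20 cKO it stood at 9.31 (7.41 to 11.5), 21.1 (16.3 to 27.0), 19.8 (15.1 to 25.5) and 21.6 CPM (16.3 to 28.2). All 4 A20 cKO libraries lay above all 4 control libraries, but the interval of A20 cKO naive overlapped those of control naive and control day 1. All A20 cKO libraries are linked and control naive, day 1 and day 2 are not. Genotype and split therefore cannot be told apart except on day 3. In A20 cKO the 3 days after injury lay 2.13 to 2.33-fold above naive. In control the level fell by 1.88 on the log2 scale (−2.57 to −1.28) from day 1 to day 2, a pair chosen after the values were seen. On day 3, where both libraries are linked, A20 cKO was 9.64-fold above control (log2 3.27, 2.48 to 4.20), on 55 against 16 UMIs. This call is lost when at least 100 UMIs are required. Plac8 stood at 54.7 CPM in A20 cKO day 3 and 22.1 CPM in control day 3, and Ccr2 at 2.36 and 2.20 CPM. Cells with a UMI of any of the 4 monocyte markers, mostly of Plac8, were 13.8% of the cells of A20 cKO day 3 and held 36.4% of its Ccnd2 UMIs. In A20 cKO naive they were 7.26% of cells with 26.5% of the Ccnd2 UMIs, on day 1 6.88% with 9.38%, and on day 2 18.6% with 18.3%. In control day 3 they were 5.86% of cells with 25% of the 16 Ccnd2 UMIs. Their part in the difference was not tested. Cells with at least 3 microglia markers held 94.5% of the Ccnd2 UMIs of A20 cKO day 3, 92.2% of those of A20 cKO day 1 and 100% of those of A20 cKO day 2. In control day 3 they held 13 of 16 (81.25%).

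The E-, A- and B-type cyclins and Ccnf were near the limit of counting in the naive control cord and were all raised on day 2. Smaller rises were already seen on day 1 for Ccne1 in control and for Ccnb1 in A20 cKO. Ccne1 (chromosome 7, 38097984 to 38107534, minus strand), which with Cdk2 starts DNA replication, had no UMI in control naive, which allows up to 1.85 CPM. Days 1, 2 and 3 held 3.06 (2.21 to 4.12), 35.0 (32.1 to 38.0) and 10.2 CPM (7.97 to 12.7). With naive set to 3 UMIs, Ccne1 was at least 1.65-fold above naive on day 1, on 43 UMIs. It was at least 18.9-fold above naive on day 2 and at least 5.49-fold on day 3. The A20 cKO series held 4.37 (3.11 to 5.98), 4.95 (2.77 to 8.17), 19.4 (14.8 to 25.1) and 13.0 CPM (8.94 to 18.2). Day 2 was the highest library in both genotypes, and control day 2 lay above A20 cKO day 2, whose ratio to it was log2 −0.84 (−1.26 to −0.46).

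Ccne2 (chromosome 4, 11191351 to 11204779, plus strand), the second E-type cyclin, was the most abundant of these 6 genes in control day 2. The control series held 2.47 (0.673 to 6.32), 3.98 (3.01 to 5.17), 54.0 (50.4 to 57.7) and 22.4 CPM (19.1 to 26.1). All 4 UMIs of control naive came from 1 cell. Leaving out the 5% of cells with the most UMIs in each library removed it, and the log2 ratio of day 2 to naive then went from 4.28 (3.09 to 6.33) to 7.28. The A20 cKO levels were 11.5 (9.43 to 14.0), 12.9 (9.16 to 17.6), 28.7 (23.0 to 35.4) and 26.0 CPM (20.1 to 33.0), so that days 2 and 3 did not differ beyond their intervals. Per UMI of Ccne1 there were 1.30 to 2.64 UMIs of Ccne2 in the 7 libraries with Ccne1.

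Ccna2 (chromosome 3, 36564865 to 36572150, minus strand), the cyclin of S phase and G2, had the sharpest onset in control. The control series held 0.617 (0.0156 to 3.44, 1 UMI), 0.640 (0.293 to 1.22), 34.8 (32.0 to 37.9) and 16.3 CPM (13.5 to 19.5). From day 1 to day 2 it rose 51.6-fold (log2 5.69, 4.83 to 6.90), against 11.3-fold for Ccne1, 13.4-fold for Ccne2, 20.6-fold for Ccnb1, 41.3-fold for Ccnb2 and 22.5-fold for Ccnf between the same libraries. The intervals of these log2 ratios put Ccna2 above both E-type cyclins (3.07 to 4.0 for Ccne1 and 3.37 to 4.18 for Ccne2) and overlap for the others. The A20 cKO series held 7.06 (5.43 to 9.04), 7.92 (5.08 to 11.8), 36.6 (30.1 to 44.1) and 21.6 CPM (16.3 to 28.2) of Ccna2, and the rise from day 1 to day 2 was 4.54-fold (log2 2.18, 1.56 to 2.91). On day 2 the genotypes did not differ beyond the interval (log2 0.08, −0.24 to 0.37).

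Ccnb1 and Ccnb2, the mitotic partners of Cdk1, rose to like levels on day 2 and parted on day 3. Ccnb1 (chromosome 13, 100778650 to 100786570, minus strand) stood at 0.617 (0.0156 to 3.44), 1.56 (0.981 to 2.37), 33.0 (30.2 to 36.0) and 14.3 CPM (11.7 to 17.3) in the control series. Ccnb2 (chromosome 9, 70407692 to 70421547, minus strand) stood at 0.617 (0.0156 to 3.44), 0.854 (0.441 to 1.49), 36.7 (33.7 to 39.8) and 38.8 CPM (34.4 to 43.6). Ccnb1 in the A20 cKO series stood at 5.16 (3.78 to 6.88), 9.25 (6.14 to 13.4), 28.0 (22.4 to 34.6) and 14.6 CPM (10.3 to 20.1), and Ccnb2 at 11.8 (9.63 to 14.3), 8.26 (5.34 to 12.2), 33.3 (27.1 to 40.5) and 32.3 CPM (25.7 to 40.1). From A20 cKO naive to day 1 Ccnb1 rose by log2 0.85 (0.11 to 1.55), which is under 2-fold and rests on 28 UMIs in 17 cells of day 1. From day 2 to day 3 the change of Ccnb2 was within its interval in both genotypes, at log2 0.08 (−0.13 to 0.29) in control and −0.04 (−0.48 to 0.39) in A20 cKO. Over the same step Ccnb1 fell by 1.20 (−1.53 to −0.90) in control and by 0.93 (−1.54 to −0.37) in A20 cKO. The other E-, A- and F-type genes changed by −1.78 to −1.09 in control, a step that crosses the split. In A20 cKO, which does not cross it, Ccna2 fell by 0.75 (−1.25 to −0.28) and Ccnf by 0.98 (−1.81 to −0.23), while the intervals of Ccne1 (−1.24 to 0.06) and Ccne2 (−0.63 to 0.34) included 0. These steps were chosen after the levels were seen.

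There were 2.72 UMIs of Ccnb2 (2.17 to 3.44) per UMI of Ccnb1 in control day 3, 2.28 (1.60 to 3.30) in A20 cKO naive and 2.22 (1.49 to 3.36) in A20 cKO day 3. The ratio was 1.11 (0.985 to 1.25) in control day 2, 1.19 (0.882 to 1.60) in A20 cKO day 2, 0.893 (0.499 to 1.59) in A20 cKO day 1 and 0.545 (0.246 to 1.15) in control day 1. Both day 3 libraries thus lay above both day 2 libraries, as did A20 cKO naive, and the intervals of the day 2 libraries include 1. The interval of A20 cKO day 2 overlapped those of A20 cKO day 3 and A20 cKO naive. In control the intervals of days 2 and 3 were apart, but that step crosses the split.

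**Figure D2:**
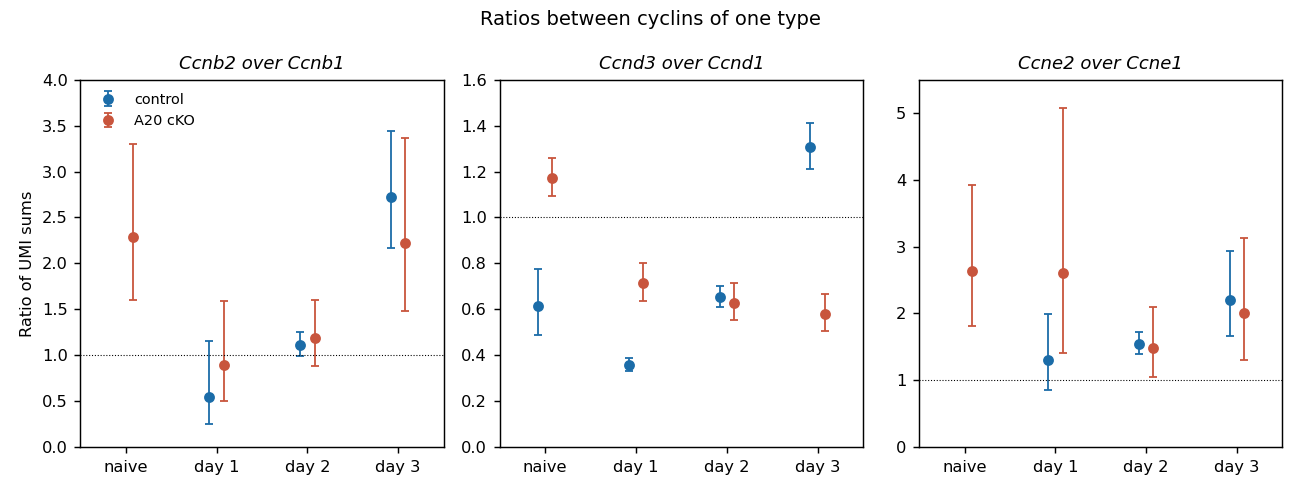
Ratio of the UMI sums of 2 cyclins of one type (vertical axis, from 0) by time point in control (blue) and A20 cKO (red), with 95% exact intervals, for libraries with at least 5 UMIs of each gene. The ratio of Ccnb2 to Ccnb1 is 1.11 and 1.19 on day 2 and 2.72 and 2.22 on day 3, and the ratio of Ccnd3 to Ccnd1 is above 1 in control day 3 and A20 cKO naive alone.

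Ccnf (chromosome 17, 24222198 to 24251484, minus strand) was the least abundant of the 6 on day 2. The control series held 1.23 (0.149 to 4.46), 0.996 (0.544 to 1.67), 23.1 (20.8 to 25.6) and 7.69 CPM (5.81 to 9.98). The A20 cKO series held 4.48 (3.20 to 6.11), 5.28 (3.02 to 8.58), 16.5 (12.2 to 21.7) and 8.26 CPM (5.12 to 12.6). Its fall from control day 2 to control day 3 (log2 −1.58, −2.02 to −1.18) was close to that of Ccne1 (−1.78, −2.15 to −1.43).

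A change was called where the ratio of the 2 CPM values was at least 2-fold among genes with at least 50 UMIs in both libraries together. Between control naive and control day 1 none of the 4 cyclins that passed this minimum (Ccnd1, Ccnd2, Ccnd3, Ccne2) was called, where 4.35% of 9930 genes were called higher and 9.48% lower. On control day 2 the count was 6 higher and 0 lower of 8 that passed, the E-, A- and B-type cyclins and Ccnf, against 6.4% of 10262 genes higher and 8.13% lower. Their log2 ratios to naive were 4.28 for Ccne2, 5.24 (3.33 to 11.13) for Ccna2, 5.16 (3.26 to 11.05) for Ccnb1, 5.31 (3.41 to 11.20) for Ccnb2 and 3.91 (2.37 to 7.28) for Ccnf, and the wide upper limits come from the 1 to 4 UMIs in control naive. All 6 called cyclins had 0 to 4 UMIs in control naive and passed the minimum only through control day 2. None of them could have been called lower. Ccnd2, on 28 against 6 UMIs (log2 −1.15, −2.36 to 0.50), did not pass. The median log2 ratio was 4.72 over the 8 cyclins that passed and −0.13 over all genes that passed. On control day 3, across the split, 7 of 8 were higher and 0 lower, the 6 called on day 2 and Ccnd3, against 9.73% of 9733 genes higher and 3.25% lower. These 6 again passed only through the injured library and could not have been called lower.

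In A20 cKO all 9 cyclins passed the minimum. On day 1 only Ccnd2 was called, higher by log2 1.19 (0.69 to 1.67), against 2.24% of 10074 genes higher and 1.93% lower. On day 2 the count was 7 higher and 0 lower, Ccnd2 and the 6 E-, A-, B- and F-type genes, against 3.77% of 10089 genes higher and 3.49% lower. The log2 ratios to A20 cKO naive ran from 1.09 (0.58 to 1.58) for Ccnd2 and 1.31 (0.88 to 1.74) for Ccne2 to 2.37 (1.91 to 2.84) for Ccna2 and 2.43 (1.91 to 2.99) for Ccnb1. On day 3 the count was 6 higher and 0 lower, with Ccnf at 0.90 (0.05 to 1.68) under the threshold, against 2.71% of 9998 genes higher and 2.74% lower. The medians over the 9 cyclins were 0.21, 1.5 and 1.22 on days 1, 2 and 3, and those over all genes that passed were 0.04, −0.07 and −0.09. On day 2, across the split, Ccna2, Ccnb1 and Ccnb2 did not differ beyond their intervals between the genotypes, whereas Ccne1 (log2 −0.84), Ccne2 (−0.91, −1.25 to −0.59) and Ccnf (−0.48, −0.95 to −0.06) were lower in A20 cKO. The 2 time courses were not tested against each other.

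**Figure D3:**
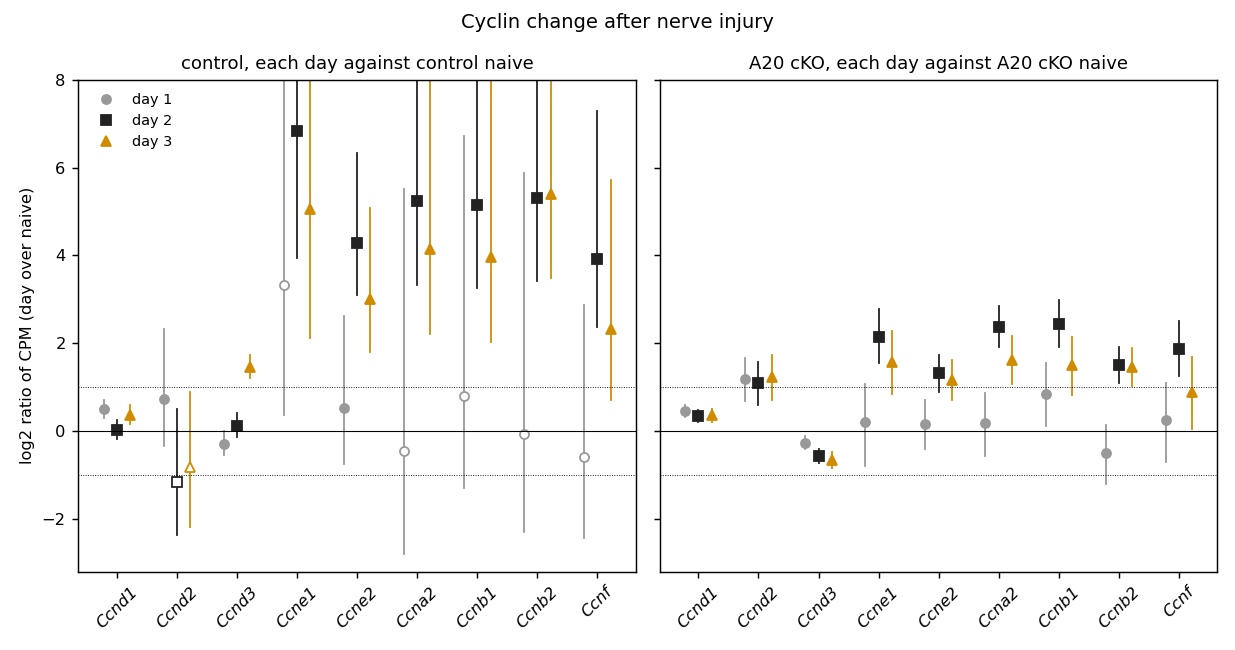
Log2 ratio of CPM of each day to naive (vertical axis) for the 9 cyclins, control at left and A20 cKO at right, with day 1 in grey, day 2 in black and day 3 in orange. Bars are 95% exact intervals for counting error, those that meet the upper edge go on beyond it, open symbols are under 50 UMIs in both libraries together, and dotted lines mark 2-fold. In both genotypes Ccne1, Ccne2, Ccna2, Ccnb1, Ccnb2 and Ccnf lie above 2-fold on day 2.

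Without injury, A20 cKO held more cyclin RNA than control in a comparison that crosses the split. The count was 5 higher and 0 lower of 6 that passed, against 8.56% of 9871 genes higher and 3.12% lower. Ccnd2, Ccne2, Ccna2 and Ccnb2 passed the minimum only through A20 cKO naive, on 83, 103, 63 and 105 UMIs there. Control naive held 6, 4, 1 and 1, so these genes could not have been called lower. Ccnb2 differed by log2 3.68 (1.74 to 9.57), Ccna2 by 2.94 (0.99 to 8.84), Ccne2 by 2.06 (0.83 to 4.13), Ccnd3 by 1.35 and Ccnd2 by 1.22 (0.15 to 2.82). Ccne1, Ccnb1 and Ccnf were also more abundant in A20 cKO naive, on 39, 46 and 40 UMIs against 0, 1 and 2, and did not reach the minimum. Set against control day 3, which is linked, the E-, A- and B-type cyclins and Ccnf of A20 cKO naive were lower, by log2 −1.72 (−2.06 to −1.39) for Ccnb2 to −0.77 (−1.40 to −0.17) for Ccnf. On day 3, within the linked libraries, only Ccnd2 was called between the genotypes, 1 higher and 0 lower of 9, against 2.29% of 9863 genes higher and 3.45% lower. Ccnd1 was higher in A20 cKO by 0.41 (0.26 to 0.55) and Ccnd3 lower by log2 −0.76 (−0.94 to −0.59), and the intervals of the other 6, from −0.69 at the lowest to 0.96 at the highest, included 0.

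**Figure D4:**
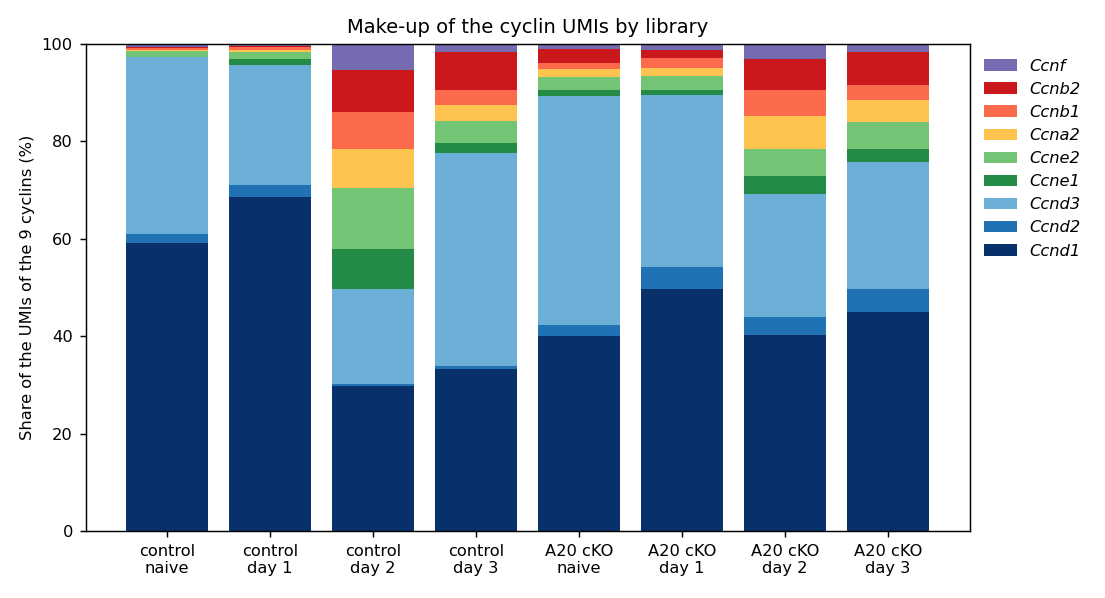
Share of each cyclin among the UMIs of the 9 cyclins (percent, stacked to 100) in each library, with the D-type cyclins in blue at the bottom. D-type cyclins hold 97.4% of the UMIs in control naive and 49.8% in control day 2, and the green Ccne1 and Ccne2 and the red Ccnb1 and Ccnb2 take most of the difference.

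UMIs of these 6 genes were found in a minority of cells, but such shares do not show how many cells held the RNA. In control day 2 the 208 thinned UMIs of Ccne1 lay in 198 of 3480 cells, mostly 1 to a cell. After thinning to 2000 UMIs, 1 or more of the 6 E-, A-, B- and F-type genes was found in 0.797% (0.218 to 2.03), 1.27% (0.914 to 1.72), 24.7% (23.3 to 26.2) and 11.0% (9.59 to 12.5) of the cells of the control series. The A20 cKO shares were 4.21% (3.47 to 5.05), 4.10% (2.85 to 5.68), 14.7% (12.01 to 17.7) and 9.29% (6.98 to 12.1). The day 1 share was thus that of naive within the intervals in both genotypes. On day 2 the thinned share of single genes ran from 3.48% for Ccnf to 7.21% for Ccne2 in control and from 1.76% for Ccnf to 4.47% for Ccnb2 in A20 cKO, and without thinning from 8.31% to 14.1% and from 4.798% to 9.90%. From naive to day 2 the share rose beyond the interval of the difference for each of the 6 in both genotypes, for example by 5.002 percentage points (3.85 to 5.81) for Ccnb2 in control and by 2.90 (1.43 to 4.86) in A20 cKO. In A20 cKO the share of Ccnd2 differed by 2.22 points (0.89 to 4.04), above 0 under every setting tried. The differences of the other D-type cyclins depended on the setting. That of Ccnd1 was 5.07 points (1.14 to 9.18), but 3.39 (−0.48 to 7.44) with another thinning seed, 2.59 (−0.36 to 5.85) at 1000 UMIs and 1.69 (−2.15 to 5.75) without shared barcodes. The Ccnd3 share differed by −7.54 points (−11.25 to −3.58), and by 0.743 (−3.40 to 4.94) without thinning. In 10 cells with markers of another cell type and few microglia markers, of median 1438.5 UMIs against 3532 in all kept cells, the 6 genes were found in 0 of 10, which allows a share of up to 30%, so that free RNA was hardly measurable there.

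To place the cyclins within the cycle, thinned cells were sorted into classes by other genes. G2/M core cells had at least 3 of 18 mitotic genes such as Mki67, Top2a and Cdk1, S core cells had at least 3 of 12 replication genes such as Mcm2, Pcna and Tyms and fewer than 3 mitotic ones, and the rest are called other. No cyclin entered the classes. G2/M core cells were 0.199%, 0.124%, 15.8% and 8.09% of the cells of the control series and 2.60%, 3.49%, 12.9% and 7.62% of those of the A20 cKO series. S core cells were 0.199%, 2.60%, 6.70% and 3.30% of the cells of the control series and 1.72%, 3.73%, 3.83% and 2.97% of those of the A20 cKO series. The G2/M core share of control day 1 (0.034 to 0.317) overlapped that of control naive (0.005 to 1.10).

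All 6 E-, A-, B- and F-type genes were more than 2-fold higher in the 927 G2/M core cells than in the 12268 other cells, and none of the D-type cyclins was. Ccne2 stood at 153 CPM (135 to 172) in G2/M core cells, 85.7 (68.4 to 106) in S core cells and 6.28 (5.32 to 7.35) in other cells. Ccne1 stood at 69.6 (58.1 to 82.7), 46.4 (33.9 to 61.9) and 5.38 (4.50 to 6.38). For both E-type cyclins, known for the entry into S phase, the pooled level in G2/M core cells was thus at or above that in S core cells. A cell with at least 3 genes of both lists was counted as G2/M core, so that class can hold cells in S phase. Ccnb2 stood at 130 (114 to 147), 21.2 (13.1 to 32.4) and 7.42 (6.38 to 8.58), Ccna2 at 99.2 (85.4 to 115), 21.2 (13.1 to 32.4) and 4.44 (3.65 to 5.36), Ccnb1 at 79.8 (67.5 to 93.8), 18.1 (10.8 to 28.7) and 6.03 (5.10 to 7.09), and Ccnf at 56.1 (45.8 to 68.0), 7.06 (2.84 to 14.5) and 3.55 (2.84 to 4.37). Over the pooled libraries the A- and B-type cyclins and Ccnf therefore stood below the E-type cyclins in S core cells. Ccnd1 stood at 129 (114 to 147), 147 (124 to 173) and 168 (163 to 173) CPM, lower in pooled G2/M core than in pooled other cells by log2 −0.37 (−0.57 to −0.19). Within control day 2 the intervals overlapped, at 120 (100 to 142) against 137 CPM (127 to 147), and within control day 3 they did not, at 88.8 (58.5 to 129) against 175 CPM (161 to 190). In the A20 cKO series G2/M core cells held 118, 172, 216 and 195 CPM and other cells 170, 217, 200 and 209 CPM, with overlapping intervals. Ccnd3 at 122, 116 and 133 CPM did not differ beyond its interval over the pooled libraries (log2 −0.11, −0.32 to 0.08). The pooled classes draw on libraries in unequal numbers, and 551 of the 927 G2/M core cells were from control day 2. In control day 2 alone Ccne2 stood at 134 CPM (114 to 158) in G2/M core and 127 (96.4 to 163) in S core cells. Ccne1 stood there at 71.7 (56.8 to 89.3) and 64.4 CPM (43.4 to 91.9). In the same S core cells Ccnb2 stood at 42.9 (26.2 to 66.3), Ccna2 at 38.6 (22.9 to 61.0) and Ccnb1 at 34.3 CPM (19.6 to 55.8). These intervals overlapped that of Ccne1 but not that of Ccne2, and Ccnf at 12.9 CPM (4.73 to 28.0) lay below both. In A20 cKO naive Ccne2 stood at 250 (173 to 349) in G2/M core and 44.4 CPM (12.1 to 114) in S core cells.

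**Figure D5:**
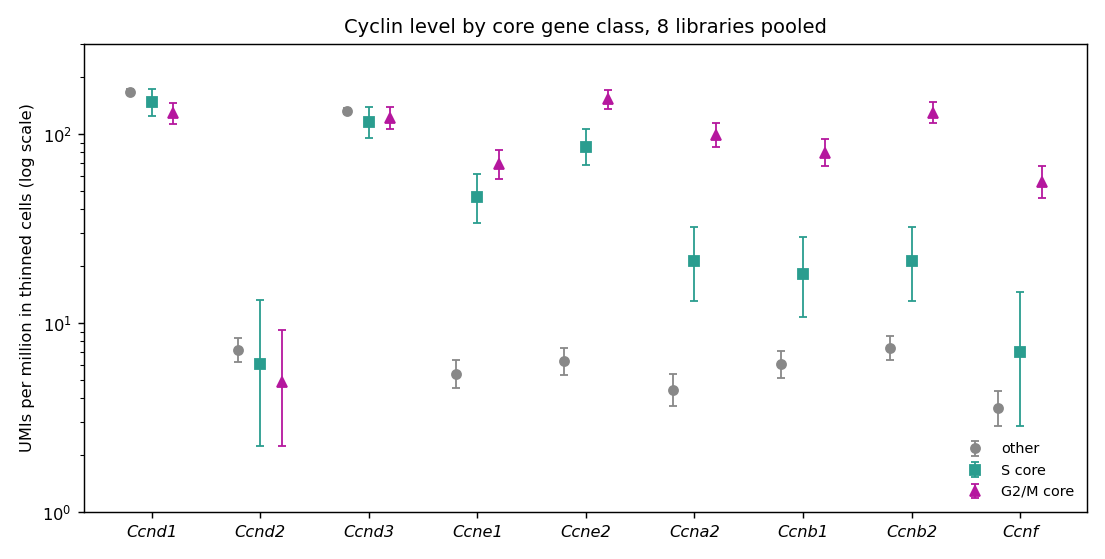
Level of each cyclin (CPM, log axis) in thinned cells of 3 classes set by genes other than cyclins, over the 8 libraries together: other (grey circles), S core (green squares) and G2/M core (purple triangles), with 95% Poisson intervals. Ccne1 and Ccne2 are raised in both S core and G2/M core cells, Ccna2, Ccnb1, Ccnb2 and Ccnf mainly in G2/M core cells, and the 3 D-type cyclins in neither.

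Within the G2/M core class some cyclins still differed between libraries. In the 6 libraries with at least 20 such cells, Ccnb2 ran from 86.2 CPM (69.7 to 105) in control day 2 to 268 (168 to 406) in A20 cKO day 3, and Ccna2 from 79.9 (64.0 to 98.4) in control day 2 to 138 (99.6 to 187) in control day 3. Ccne1 ran from 59.2 (35.1 to 93.6) in control day 3 to 85.4 (34.3 to 176) in A20 cKO day 3, with overlapping intervals. In these cells there were 1.42 UMIs of Ccnb2 (1.03 to 1.97) per UMI of Ccnb1 in control day 2 and 1.64 (1.06 to 2.55) in control day 3, and 1.21 (0.631 to 2.35) and 2.75 (1.18 to 7.14) in A20 cKO days 2 and 3, with overlapping intervals. Among the other cells of control day 3 Ccnb2 stood at 18.0 CPM (13.8 to 23.2), against 2.103 for Ccna2 and 3.31 for Ccnb1. In the other cells of control day 2 the 3 genes stood at 15.2, 15.0 and 20.4 CPM. Ccnb2 RNA outside the G2/M core class on control day 3 was thus not matched by Ccna2 or Ccnb1, a pattern chosen after the values were seen.

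Cells that held a UMI of a late cyclin often held another. Of 290 thinned cells with Ccna2, 18.3% also had Ccnb2, against 2.73% of all 13691 thinned cells, and of 292 with Ccne1 27.4% also had Ccne2, against 2.98%. Of 278 cells with Ccnb1, 16.9% had Ccnb2. D-type cyclins were not enriched in this way, since Ccnd1 was found in 22.7% of cells with Ccnb2 and 15.8% of cells with Ccnb1, against 26.8% of all, and Ccnd3 in 22.5% of cells with Ccnb2 against 22.2% of all. These shares pool the libraries, so that 2 genes which are both high in day 2 libraries will also meet more often.

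A list of 31 genes that act with the cyclins moved with them in part. It holds their kinases, the enzymes acting on these, small subunits, genes of cyclin destruction and other cyclins, and 3 of its genes, Cdk1, Cks2 and Ube2c, also define the G2/M core class. In control 3 were called higher and 1 lower of 25 that passed on day 1, 12 and 1 of 29 on day 2, and 7 and 0 of 27 on day 3. In A20 cKO the counts were 1 and 0, 8 and 1, and 6 and 0 of 27. Between the naive libraries they were 6 and 0 of 26, and between the day 3 libraries 0 and 0 of 27. The shares of all genes called in these comparisons are those given above for the cyclins.

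Cks1b, a small subunit of the kinases, Pkmyt1 and Wee1, which hold Cdk1 inactive, were called in most comparisons, 6 each. Cks1b stood at 4.32, 18.3, 90.2 and 44.2 CPM in the control series and 22.9, 35.0, 92.0 and 49.97 CPM in the A20 cKO series. It was already called on control day 1 (log2 1.98, 1.02 to 3.41), when none of the 4 cyclins that passed the minimum was. Ccne1, on 43 against 0 UMIs, was among the cyclins that did not pass and could not be called. Wee1 had no UMI in control naive and stood at 8.39, 10.6 and 7.27 CPM on days 1, 2 and 3. Cdk1 itself, the partner of the A- and B-type cyclins, stood at 4.32, 4.27, 46.1 and 23.1 CPM in the control series and 12.6, 13.5, 41.2 and 32.7 CPM in the A20 cKO series. Cdc20, which directs the anaphase-promoting complex to cyclin B, stood at 1.85, 1.85, 30.4 and 19.2 CPM and 8.41, 5.28, 32.0 and 20.5 CPM, and Ube2c, the ubiquitin-conjugating enzyme of that complex, at 0.617, 0.498, 55.8 and 29.5 CPM and 10.5, 18.5, 50.8 and 35.0 CPM. The G1 kinases were not called in any comparison. Cdk4 stood at 80.2, 118, 133 and 78.8 CPM in the control series and Cdk6 at 82.1, 65.7, 66.3 and 84.7 CPM. The genes called lower were Fbxo5 on control day 1 and Ccng2 on day 2 in both genotypes.

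Over the 8 libraries, which share the split above, the genes most alike to each cyclin were ranked by the correlation of log2(CPM + 1) among 6133 genes. Ccna2 was most like Cdk1 (r = 0.99), Pbk (0.99) and Ube2c (0.99), Ccnb2 like Cenpa (0.99), Birc5 (0.98) and Tpx2 (0.98), and Ccnb1 like Ncapd2 (0.99), Rad51ap1 (0.98) and Birc5 (0.98). Ccne1 was most like Rad51ap1 (0.98), Gmnn (0.98) and Cks1b (0.98), Ccne2 like Stmn1 (0.99), Birc5 (0.98) and Cdk1 (0.98), and Ccnf like Cdca3 (0.99), Esd (0.98) and Cdk1 (0.98). The D-type cyclins had other neighbours, Gnl2 (0.96), Hsph1 (0.96) and Sdad1 (0.95) for Ccnd1, Tlr2 (0.95), Il2rg (0.94) and Birc3 (0.93) for Ccnd2, and Mier1 (0.99), Ripk1 (0.98) and Mkln1 (0.98) for Ccnd3. Among the cyclins themselves the 6 E-, A-, B- and F-type genes correlated with each other at 0.89 to 0.98, whereas Ccnd2 correlated with them at 0.03 to 0.15 and with Ccnd1 at 0.89. These are descriptions over 8 libraries of unequal depth.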

How the data were processed

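For each of 8 10x Genomics 3′ libraries a matrix of UMI counts by gene and barcode, not normalized, was deposited by the authors. The kit version differs between the labels (v3.1) and the methods (v3). Per the submitters' processing notes the data were processed with Cell Ranger 2.1.1 on mm10. Coordinates are those of GENCODE M21 on GRCm38, to which 99.0% of the 27998 identifiers matched.

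Cells were kept with at least 1000 UMIs, 500 genes and at most 10% mitochondrial UMIs. No doublet caller was run, and cells above the 95th percentile of UMIs were left out as an alternative. UMI sums were scaled to CPM, and 0.5 UMIs were added for log2 ratios. Poisson, Clopper-Pearson, Newcombe and conditional intervals at 95% (Python 3.11.15, numpy 2.4.6, scipy 1.17.1) were used in place of tests, because each group had 1 library. The ratios were tested on simulated data. Shares and classes used cells thinned to 2000 UMIs without replacement, which left 502 to 3480 cells per library. With 0 UMIs the limit is that of 3 counts.

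The 9 members and the lists were chosen with earlier results of these data known. Beside the members, the genes named are those of the list called in most comparisons and the 3 most alike to each member, leaving out predicted, mitochondrial, sex-linked marker and ribosomal-protein genes. Marker lists covered microglia and 11 other cell types. One item of the microglia list is not reported here and was left out of it. Exons of Ccnd1, Ccnd2, Ccnd3, Ccne2 and Ccna2 overlap a gene on the opposite strand, and the 3′ libraries keep the strand. Those of Ccnf overlap the microRNA gene Mir5134 on the same strand.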

Additional observations from a re-analysis of the deposited data

Results flagged for a closer look

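Ccnd3 changed in opposite directions in the genotypes from naive to day 3. The log2 ratio was 1.46 (1.20 to 1.74) in control, from 77.1 to 213 CPM, and −0.65 (−0.83 to −0.48) in A20 cKO, from 198 to 126 CPM. With 1 library per group the difference was not tested. The control ratio sets a linked library against one that is not, and the A20 cKO ratio lies within the linked libraries. The part of the split in the control ratio cannot be told apart from the day. Groups of 1 library cannot show a library that stands apart from its replicates.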

How the results depend on the processing

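No paired analysis was possible because each group had 1 library, and for the same reason no library could be left out as a replicate. The counts of cyclins called higher or lower kept within 1.5 times their value under median-of-ratios scaling, the mean of cell CPM, all barcodes, a stricter cell filter, without shared barcodes and without cells under 3 microglia markers, the last of these chosen after seeing the data. With a minimum of 1 UMI, control day 1 had 1 higher, control day 2 had 1 lower and A20 cKO naive had 8 higher than control naive. With a minimum of 100 UMIs, A20 cKO naive had 3 higher than control naive, and A20 cKO day 3 had 0 higher than control day 3. With a fold of 1.5, control day 1 had 1 higher, A20 cKO day 1 had 2 higher, A20 cKO day 3 had 1 lower than naive, and A20 cKO day 3 had 1 lower than control day 3. Without cells above the 95th percentile of UMIs, control day 1 had 1 higher. Of the log2 ratios between libraries those of Ccne2 left their intervals, 6 in all and all under that last setting. It removes the 1 cell holding the Ccne2 UMIs of control naive, and against that library it gave 3.13, 7.28 and 5.92 for control days 1, 2 and 3 and 4.58 for A20 cKO naive. The other 2, A20 cKO days 2 and 3 against A20 cKO naive, were 1.78 and 1.66, and their cause was not tested. Of the ratios of G2/M core over other cells, Ccne2 moved to 5.07 without thinning and Ccna2 to 4.08 with 2 core genes. No called ratio changed its direction. The count of cyclins over 2-fold higher in G2/M core cells was 6 with 2 core genes and without thinning too. Shares of cells depend on depth, and 55 of 72 left their intervals without thinning, while the 6 late cyclins rose from naive to day 2 under every setting tried. The depth of control naive, 1620481 UMIs, limits every ratio to it.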

Other observations

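Ccna1 and Ccnb3, germline relatives of Ccna2 and the B-type cyclins, had no UMI in any library, which allows at most 0.190 to 1.85 CPM. Ccng2, a cyclin of resting and stressed cells, was called lower on day 2 in both genotypes, at 183, 92.8, 86.6 and 126 CPM in the control series (naive, then days 1, 2 and 3) and at 176, 90.8, 79.8 and 109 CPM in the A20 cKO series. Ccnl1, which acts in RNA splicing, stood at 160, 306, 194 and 320 CPM in the control series and 339, 322, 347 and 404 CPM in the A20 cKO series, with the linked libraries all above 320 CPM and control day 1 close to them. Ccng2 and Ccnl1 were chosen after their values were seen.

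The barcodes that failed the cell filter numbered 0 to 58 per library. They held 0 to 25 UMIs of the 9 cyclins per library and 0 to 5 UMIs of the 6 E-, A-, B- and F-type genes.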
